A study of Homo sapiens with 6 samples.

Results

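Laminin-332 and the hemidesmosome proteins that hold epithelial cells to it were followed here through 8 genes, LAMA3, LAMB3, ITGA6, ITGB4, COL17A1, CD151, DST and PLEC, out of 56303 genes in the count table. They were chosen by name as members of the adhesion complex after the difference between the same 2 groups of libraries had been looked at, so their values are a description and carry no test. All 8 passed the filter on low counts, which kept 21298 genes. The study transfected T24 cells, an established human bladder carcinoma line, for 48 h with a control siRNA (siNC) or with siRNA against FBXL6, which encodes an F-box protein, and sequenced mRNA from 3 samples per group. All cells were labelled wild type, and the sources used here do not state which siRNA against FBXL6 was taken for sequencing. The siNC libraries held 58646515, 60967902 and 56814946 counts, and the siFBXL6 libraries held 60968158, 60898556 and 60754015.

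Laminin-332 is a basement membrane protein whose alpha chain is encoded by LAMA3 and whose beta chain is encoded by LAMB3. Basal epithelial cells secrete it and bind it through the integrin formed by ITGA6 and ITGB4, which joins the transmembrane collagen COL17A1 and the tetraspanin CD151 in the hemidesmosome. On the inner side, the plakins encoded by PLEC and DST tie this complex to keratin filaments.

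The targeted gene, FBXL6, had raw counts of 362, 414 and 398 in siNC and 398, 344 and 350 in siFBXL6. It shares 37.0% of its exon bases with other genes of the table, so its count depends on how reads in these bases were treated. The counts of the groups overlapped, and the log2 fold change (siFBXL6 over siNC, as everywhere below) was -0.13 ± 0.088 (standard error), which edgeR's quasi-likelihood test did not call (adjusted p = 0.247). The libraries are therefore named by their labels throughout, and every direction below is that of the library labels. ACTB, which encodes β-actin, was at 1168 ± 24.5 and 1168 ± 25.8 per-million counts (CPM, with library sizes scaled by TMM factors; SD, n = 3 each), and its log2 fold change was 0.00 (edgeR adjusted p = 0.996).

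Epithelial markers of the label check were present at unequal levels. EPCAM was at 274 ± 10.1 CPM in the siNC libraries, KRT7 at 1038 ± 21.1 CPM and the basal keratin gene KRT5 at 437 ± 6.77 CPM (SD, n = 3 each). Lower in these libraries were GATA3 at 13.6 ± 0.706 CPM, UPK2 at 1.41 ± 0.279 CPM and the keratin gene KRT14 at 1.12 ± 0.148 CPM. Of 16 urothelial and epithelial markers, 12 passed the filter, and the umbrella cell markers UPK1A, UPK1B, UPK3A and KRT20 did not. Among the 7 mesenchymal markers, FN1 was the most abundant at 2429 ± 71.9 CPM, whereas VIM was at 15.6 ± 0.513 CPM in siNC and 25.4 ± 0.528 CPM in siFBXL6 (SD, n = 3). T24 is usually described as a line with abundant vimentin, which these levels do not show. The study's methods state that its lines were checked by short tandem repeat typing, and the identity of these libraries was not tested here.

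The alpha chain gene LAMA3 (chromosome 18, 23689443 to 23955066, plus strand, GRCh38) was at 307, 299 and 289 CPM in the 3 siNC libraries and at 892, 919 and 911 CPM in the libraries labelled siFBXL6. Every library labelled siFBXL6 was above every siNC library, by 3.04-fold in the fit, and the SD within a group was 9.19 and 13.4 CPM. The log2 fold change of LAMA3 was 1.60 (standard error 0.030, 95% interval 1.54 to 1.66), and 99.5% of the genes tested had a lower one. In such bulk samples, more cells that express a gene and more RNA per cell cannot be told apart, nor can fewer and less. The beta chain gene LAMB3 (chromosome 1, 209614870 to 209652466, minus strand) was at 739.7, 713 and 744 CPM in the siNC libraries and at 1189.6, 1195 and 1184 CPM in those labelled siFBXL6. Its groups did not overlap either, and the difference was smaller than that of LAMA3, with a log2 fold change of 0.70 (standard error 0.027, 95% interval 0.64 to 0.76).

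**Figure D1:**
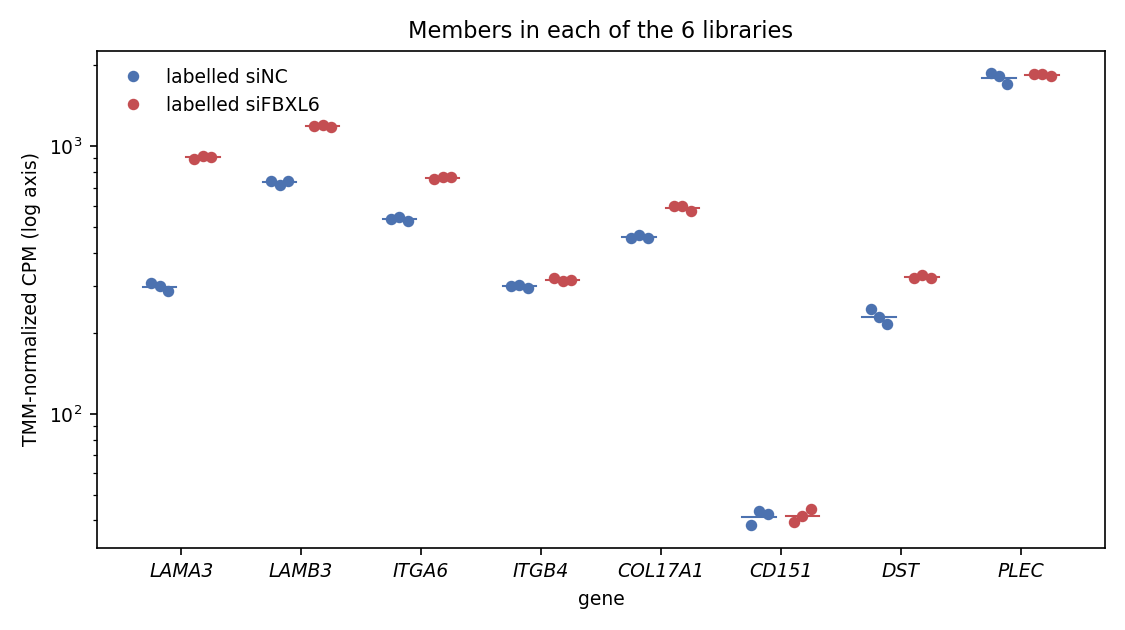
TMM-normalized CPM of each member on a log axis, with 1 point per library, siNC in blue and siFBXL6 in red, and a line at each group mean. LAMA3 lies between 289 and 307 CPM in the siNC libraries and between 892 and 919 CPM in the others, while the points of CD151 and PLEC overlap.

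The integrin subunits moved unequally. ITGA6, the alpha subunit (chromosome 2, 172427354 to 172506282, plus strand), was at 534, 542 and 523 CPM in the siNC libraries and at 751, 766 and 769.5 CPM in those labelled siFBXL6. ITGB4, the beta subunit that pairs with no other alpha chain (chromosome 17, 75721328 to 75757818, plus strand), was at 300.2, 303 and 295 CPM and at 321, 314 and 315 CPM. Neither gene's groups overlapped, but the log2 fold change was 0.52 (standard error 0.028) for ITGA6 and 0.08 (standard error 0.029, 95% interval 0.02 to 0.14) for ITGB4. COL17A1, the collagen that spans the hemidesmosome membrane (chromosome 10, 104031286 to 104086002, minus strand), was at 455, 465 and 452 CPM in the siNC libraries and at 597, 597 and 573 CPM in those labelled siFBXL6. All 3 libraries labelled siFBXL6 were above the siNC libraries, with a log2 fold change of 0.37 (standard error 0.028). CD151, the tetraspanin that associates with laminin-binding integrins (chromosome 11, 832843 to 839831, plus strand), was at 38.4, 43.4 and 42.2 CPM and at 39.6, 41.6 and 43.99 CPM. Its groups overlapped, and its log2 fold change was 0.01 (95% interval -0.08 to 0.11).

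The plakins also differed from each other. DST, whose epithelial product is the bullous pemphigoid antigen of the hemidesmosome (chromosome 6, 56457987 to 56954628, minus strand), was at 246, 231 and 216 CPM in the siNC libraries and at 320.4, 330.2 and 322 CPM in the libraries labelled siFBXL6. The groups did not overlap, the siNC libraries were the more spread (coefficient of variation 6.51% against 1.61%), and the log2 fold change was 0.49 (standard error 0.035). PLEC, which encodes plectin (chromosome 8, 143915147 to 143976734, minus strand), was at 1869.5, 1832 and 1704 CPM and at 1858, 1855 and 1829 CPM. The libraries labelled siFBXL6 lay within the range of the siNC libraries, of which replicate 3 was the lowest, and the log2 fold change was 0.04 (95% interval -0.02 to 0.10).

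**Figure D2:**
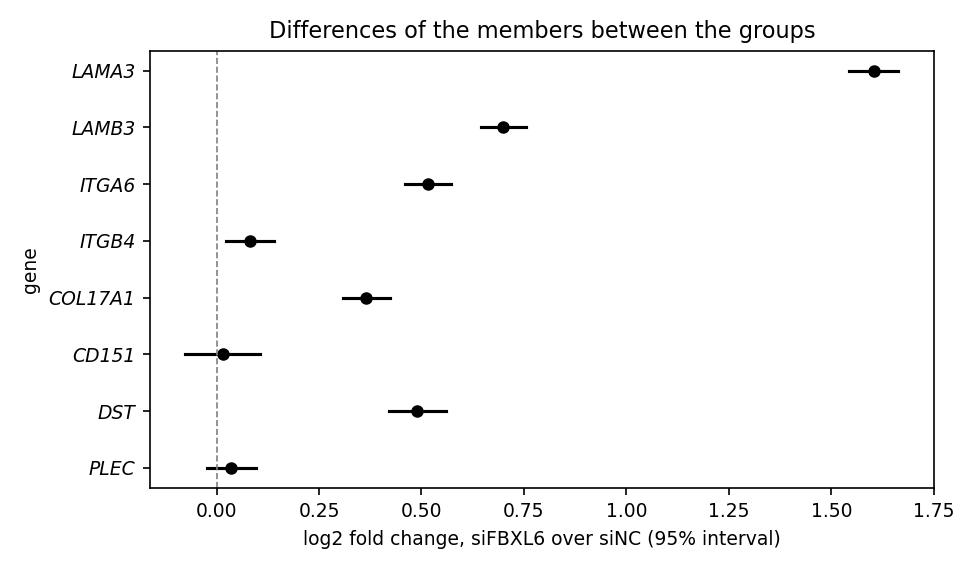
Log2 fold change of each member (point) with its 95% interval (line) from the edgeR fit, libraries labelled siFBXL6 over siNC. LAMA3 at 1.60 is followed by LAMB3 at 0.70, and the intervals of CD151 and PLEC include 0.

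In all, 6 of the 8 members were called higher at an adjusted p under 0.05, where 20.5% of all genes tested were called higher, 19.8% lower and 40.2% in either direction. The groups did not overlap, with the libraries labelled siFBXL6 on the upper side, for 6 members and for 24.3% of all genes. The call of ITGB4 was lost with upper-quartile scaling, with libraries scaled by size alone, and without siNC replicate 3, siFBXL6 replicate 1 or siFBXL6 replicate 3, which left 5 members called, and without siNC replicate 1 PLEC was called too, which made 7. Since the members were chosen on this contrast, nothing is read from these counts. The median log2 fold change was 0.43 over the members and -0.0071 over all genes tested.

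Divided by the summed exon length of each gene, LAMB3 had the highest level of the members in all 6 libraries, at 154 ± 3.48 CPM per kb in siNC and 250.5 ± 1.23 CPM per kb in siFBXL6 (SD, n = 3 each). PLEC at 106 ± 5.09 CPM per kb and ITGA6 at 81.6 ± 1.44 CPM per kb came next in siNC, and changed places in the libraries labelled siFBXL6, at 109 ± 0.939 and 117 ± 1.5 CPM per kb. COL17A1 was the fourth in every library, at 70.2 ± 1.01 and 90.5 ± 2.13 CPM per kb. ITGB4 stood above LAMA3 in the siNC libraries, at 44.3 ± 0.568 against 22.1 ± 0.680 CPM per kb, and below it in those labelled siFBXL6, at 46.9 ± 0.512 against 67.1 ± 0.994 CPM per kb. CD151 and DST were lowest, DST at 5.45 ± 0.355 and 7.66 ± 0.123 CPM per kb. No neighbours in this order overlapped within a group.

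The summed exons of LAMA3 (13522 bases) and DST (42341 bases) join isoforms from several promoters, which a count per gene cannot tell apart. If all reads came from 1 isoform, LAMA3-201 of 5618 bases, the short isoform of LAMA3, and DST-205 of 8971 bases, the level of LAMA3 would be 53.1 ± 1.64 and 161 ± 2.39 CPM per kb and that of DST 25.7 ± 1.68 and 36.1 ± 0.581 CPM per kb in siNC and siFBXL6. With DST-201, a longer isoform of 16742 bases, DST would be at 13.8 ± 0.898 and 19.4 ± 0.311 CPM per kb. At the length of LAMA3-201, LAMA3 would be second to LAMB3 in the libraries labelled siFBXL6, and above ITGB4 in siNC as well. The exchange of places between LAMA3 and ITGB4 was thus seen with summed exons and not at this short length. Other lengths of LAMA3 were not tried. These lengths were chosen after the data were seen.

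**Figure D3:**
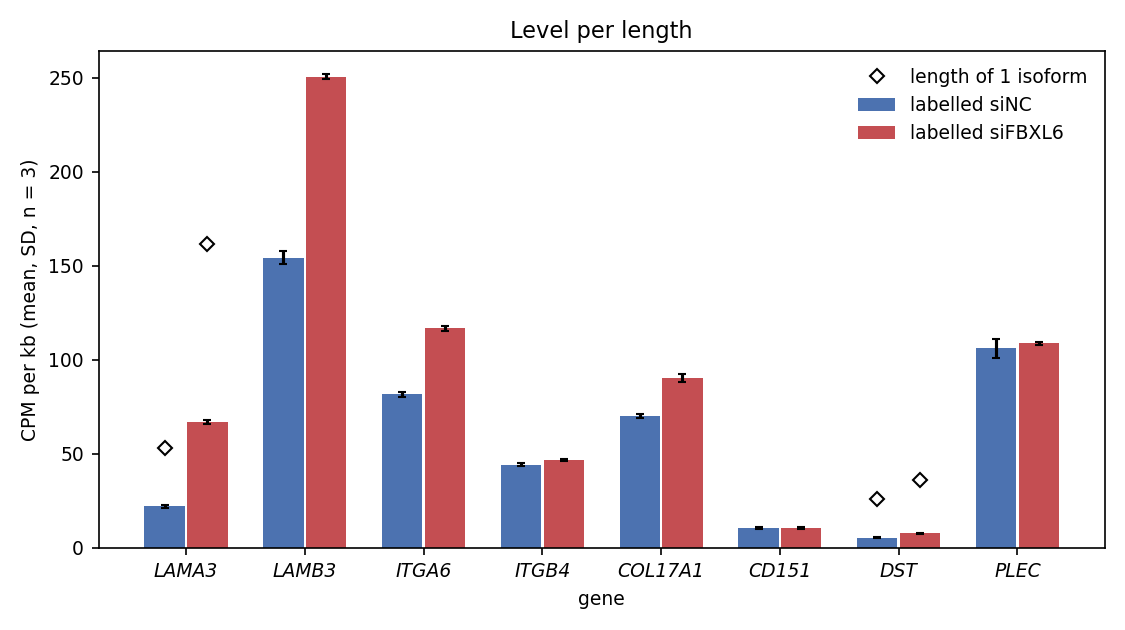
CPM per kb of summed exon length (bars, mean; lines, SD, n = 3) in siNC (blue) and siFBXL6 (red), with open diamonds for LAMA3 at the length of LAMA3-201 and DST at that of DST-205. LAMB3 is highest in both groups, and the position of LAMA3 depends on the length used.

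Ratios within a library do not depend on how libraries are scaled. Per kb, the ratio of LAMA3 to LAMB3 was 0.146, 0.147 and 0.136 in the siNC libraries and 0.263, 0.270 and 0.270 in those labelled siFBXL6. The alpha chain transcript was below the beta chain transcript in every library, and less so in the libraries labelled siFBXL6, a log2 difference of 0.90 between the groups. The ratio depends on the length used, and with the short isoform of LAMA3 it was 0.351, 0.355 and 0.328 in siNC and 0.634, 0.650 and 0.650 in siFBXL6. The ratio of ITGA6 to ITGB4 per kb was 1.84, 1.85 and 1.83 in siNC and 2.42, 2.52 and 2.52 in siFBXL6, a log2 difference of 0.43. ITGA6 was thus in excess of ITGB4 in all 6 libraries, and more so in those labelled siFBXL6.

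Shares of the alpha and beta laminin chain classes, a measure chosen after the data were seen, put the members beside the other chains. Of the alpha chain level per kb, LAMA3 made up 48.4%, 48.4% and 47.5% in the siNC libraries and 76.7%, 77.1% and 76.8% in those labelled siFBXL6. At the length of its short isoform, the share of LAMA3 was 69.3%, 69.3% and 68.5% in siNC and 88.8%, 89.0% and 88.8% in siFBXL6. The other alpha chains kept their summed exons there, so the shorter length raises the share of LAMA3 by construction. With summed exons for all chains, the mean share of LAMA5 went from 23.4% to 10.6%, that of LAMA4 from 15.5% to 4.72% and that of LAMA1 from 12.8% to 7.74%. A share also moves with the level of LAMA3 in its denominator, and the mean level itself went from 10.8 to 9.25 CPM per kb for LAMA5, from 7.12 to 4.12 CPM per kb for LAMA4 and, upward, from 5.87 to 6.76 CPM per kb for LAMA1. LAMB3 made up 56.7%, 57.5% and 57.6% of the beta chain level in siNC and 69.1%, 69.3% and 69.1% in siFBXL6, and LAMB1 was the next. By counts not divided by length, LAMB1 was ahead of LAMB3 in siNC, with a mean of 50.4% against 44.3%, and behind it in siFBXL6, with 39.0% against 57.1%. LAMA3 and LAMB3 thus each held a larger share of their class in every library labelled siFBXL6 than in any siNC library.

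**Figure D4:**
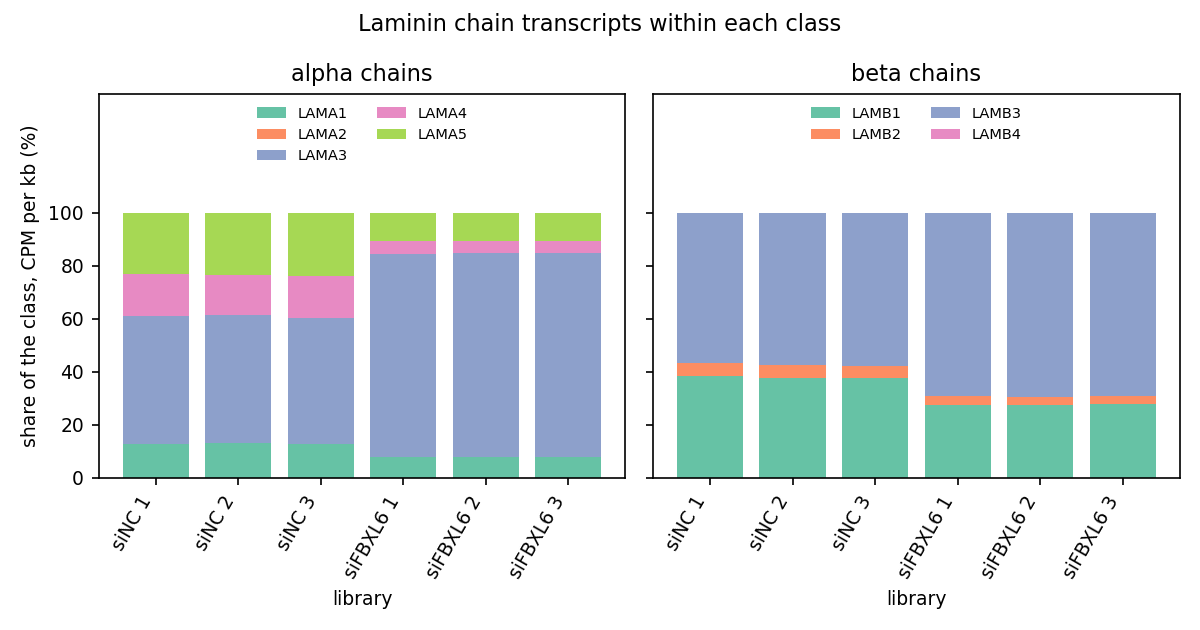
Share of each laminin chain in the summed CPM per kb of its class (percent), per library, for the alpha and beta chains. LAMA3 goes from a mean of 48.1% in siNC to 76.9% in siFBXL6, and LAMB3 from 57.3% to 69.2%.

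Promoter windows ran from 250 bases before to 50 after a transcription start (RefSeq, GRCh38.p14). They were matched by symbol for 5 members, LAMA3, LAMB3, ITGA6, COL17A1 and DST, and all 10 of their windows were used. These were also the 5 members with a log2 fold change over 0.3. ITGB4, CD151 and PLEC, with the smallest log2 fold changes of the members, were not analysed here, nor was the outer start of LAMA3. The counts of matches below therefore cover only the members that differed most. The letters TGACTCA and TGAGTCA (AP-1, each the reverse complement of the other) were searched on both strands. They occurred in 3 of these 10 windows, and in 4.95% of all 35116 windows of genes. The LAMA3 window (chr18:23872770-23873069, plus strand), at the internal start of the short isoform, held a pair of matches, 125 and 69 bases before the start. Of the LAMB3 windows, the innermost (chr1:209651325-209651624, minus strand) held 1 match, 67 bases before the start, and the outermost (chr1:209652376-209652675, minus strand) and the middle (chr1:209652280-209652579, minus strand), which share bases, held none. The COL17A1 window (chr10:104085831-104086130, minus strand) and both ITGA6 windows held none, and 1 of the 3 DST windows held 1. This was the outermost DST window, with the match 25 bases after the start. The DST window that holds the starts of DST-201 and DST-205 held none. The LAMA3 window, the innermost and outermost LAMB3 windows and, beside these laminin chains, which differed most, the COL17A1 window are shown 5′ to 3′ with the AP-1 letters in capitals.
LAMA3: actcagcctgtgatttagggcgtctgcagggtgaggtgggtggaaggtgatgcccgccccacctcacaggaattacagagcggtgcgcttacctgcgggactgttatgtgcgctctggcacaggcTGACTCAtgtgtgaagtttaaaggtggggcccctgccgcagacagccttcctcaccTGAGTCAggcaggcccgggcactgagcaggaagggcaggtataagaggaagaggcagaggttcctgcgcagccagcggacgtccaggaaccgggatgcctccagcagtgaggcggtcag
LAMB3 innermost: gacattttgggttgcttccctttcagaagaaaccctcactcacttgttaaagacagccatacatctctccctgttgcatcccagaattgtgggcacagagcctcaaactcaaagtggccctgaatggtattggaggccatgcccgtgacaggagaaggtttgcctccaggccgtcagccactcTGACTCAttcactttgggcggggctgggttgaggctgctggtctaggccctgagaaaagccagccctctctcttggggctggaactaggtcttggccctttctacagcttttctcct
LAMB3 outermost: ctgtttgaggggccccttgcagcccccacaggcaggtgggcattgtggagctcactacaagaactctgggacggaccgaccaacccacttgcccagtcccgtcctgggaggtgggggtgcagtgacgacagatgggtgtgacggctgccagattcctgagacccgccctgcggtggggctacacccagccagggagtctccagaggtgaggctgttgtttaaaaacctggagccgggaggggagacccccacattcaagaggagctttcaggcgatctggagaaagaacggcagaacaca
COL17A1: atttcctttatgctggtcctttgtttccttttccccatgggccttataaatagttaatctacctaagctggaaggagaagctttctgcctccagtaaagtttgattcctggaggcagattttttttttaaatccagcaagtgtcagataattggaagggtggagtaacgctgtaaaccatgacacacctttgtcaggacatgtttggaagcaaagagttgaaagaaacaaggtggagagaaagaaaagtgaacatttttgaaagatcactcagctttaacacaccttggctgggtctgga

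Other letters were searched on both strands in the same windows. GGGCGG (GC box) was in 7 of the 10 windows, of LAMA3, LAMB3, ITGA6 and DST, and in 45.0% of all windows. The outermost and middle LAMB3 windows held the same GC box site. Both ITGA6 windows, which also share bases, have a GC box site in common, so these sites were counted in each window. CACCTG (the E-box of SNAI and ZEB factors) was in 3 of the 10, of LAMA3, LAMB3 and ITGA6, and in 20.6% of all windows. The letters TATAAA, those of the TATA box, were in 2 of the 10, of ITGA6 and COL17A1, and in 11.5% of all windows. The CACCTG match of LAMA3 shares bases with its AP-1 match nearer the start. A match is a run of letters, and binding was not measured.

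Among 16192 other genes that averaged 1 CPM or more, those nearest to a member were found by the Euclidean distance between log2 CPM profiles over the 6 libraries, each centred on its own mean. Nearest to LAMA3 were SDC4 (distance 0.107) and G0S2 (0.113), and to LAMB3 TIMP3 (distance 0.0323) and STX3 (0.0582). For ITGA6 they were EHBP1L1 (distance 0.0338) and IL4R (0.0339), for ITGB4 GNAI3 (distance 0.0282) and ELK1 (0.0290), and for COL17A1 UBE2J1 (distance 0.0362) and RASA3 (0.0440). For DST they were AIM1 (distance 0.0447) and MTX1P1 (0.0470), for PLEC WDR33 (distance 0.0307) and SH3PXD2B (0.0311), and for CD151 CYB561D2 (distance 0.0428) and FGFR1 (0.0608). The distance includes the difference between the groups. The log2 fold change was 0.516 for EHBP1L1 and 0.517 for IL4R beside 0.515 for ITGA6, and 1.56 for SDC4 and 1.65 for G0S2 beside 1.60 for LAMA3. A small distance can thus reflect a like group difference alone.

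Genes related to the members were taken from 12 lists, each given by its calls and median beside 20.5% higher, 19.8% lower and a median log2 fold change of -0.0071 over all genes tested. This balance of calls depends on the scaling, with 3972 higher and 4718 lower under upper-quartile scaling against 4360 and 4209 with TMM. The genes named from them as risen or fallen had groups that did not overlap, 3 libraries against 3. Of 8 other laminin chains tested, 1 was called higher and 4 lower, with a median log2 fold change of -0.11. LAMA1 rose (log2 fold change 0.20, adjusted p = 1.96e-06, edgeR). LAMA4, a chain of vessel and muscle basement membranes, fell from 82.4 ± 2.63 to 47.7 ± 1.11 CPM (log2 fold change -0.79, adjusted p = 4.78e-19, edgeR). LAMC1, the most abundant of the list (log2 fold change -0.25, adjusted p = 8.83e-09), and LAMA5 (log2 fold change -0.22, adjusted p = 2.92e-07) also fell in edgeR's test.

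Of 10 other laminin receptors tested, 6 were higher and 4 lower, with a median log2 fold change of 0.31, and 8 to 10 were called over the alternative settings other than a 2-fold limit. The proteoglycan gene SDC4 rose from 47.4 ± 0.680 to 140.0 ± 0.431 CPM (log2 fold change 1.56, adjusted p = 9.48e-29, edgeR). ITGA2 (log2 fold change 0.75, adjusted p = 4.85e-20) and ITGA3 (log2 fold change 0.42, adjusted p = 8.83e-15), alpha subunits that pair with ITGB1, rose as well in edgeR's test. ITGB1 itself, the most abundant of the list, rose less (log2 fold change 0.23, adjusted p = 6.08e-09, edgeR). BCAM, a receptor of laminin alpha-5, fell (log2 fold change -0.79, adjusted p = 8.39e-20, edgeR).

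Of 19 basement membrane components tested, 4 were higher and 9 lower, with a median log2 fold change of -0.12. COL4A1 fell from 737 ± 19.6 to 367 ± 1.5 CPM (log2 fold change -1.01, adjusted p = 1.98e-24, edgeR), whereas COL4A2, its partner in collagen IV and the most abundant of the list, fell less (log2 fold change -0.12, adjusted p = 4.03e-04, edgeR). COL7A1, which forms the anchoring fibrils that bind laminin-332, fell (log2 fold change -0.30, adjusted p = 1.56e-10, edgeR), as did NTN4 (log2 fold change -0.35, adjusted p = 8.02e-11, edgeR). TINAGL1 rose (log2 fold change 0.44, adjusted p = 7.95e-14, edgeR).

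Among the 7 hemidesmosome-associated genes, 2 were higher and 3 lower, with a median log2 fold change of 0.00. The keratin genes KRT5 (log2 fold change -0.48, adjusted p = 7.84e-16) and KRT8 (log2 fold change -0.29, adjusted p = 2.03e-10) fell in edgeR's test, opposite to LAMA3, LAMB3, ITGA6, COL17A1 and DST. The other keratin genes of the list, KRT18 (log2 fold change 0.00, adjusted p = 0.990) and KRT14 (log2 fold change 0.16, adjusted p = 0.557), were not called by edgeR. LAD1 (log2 fold change 0.13, adjusted p = 0.00104) and FERMT1 (log2 fold change 0.15, adjusted p = 1.45e-04) rose by small amounts in edgeR's test. Of 5 other plakins, MACF1 rose (log2 fold change 0.35, adjusted p = 2.81e-11, edgeR) and 3 fell, with a list median of -0.13. These were PPL (log2 fold change -0.16, adjusted p = 2.65e-04), EVPL (log2 fold change -0.13, adjusted p = 0.00163) and EPPK1 (log2 fold change -0.13, adjusted p = 0.0136). The call of EPPK1 was lost without siNC replicate 2, siFBXL6 replicate 2 or siFBXL6 replicate 3. DSP, the most abundant, overlapped at a log2 fold change of -0.05 (edgeR adjusted p = 0.214), and was called lower with libraries scaled by size alone or without siNC replicate 3.

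Of 24 other tetraspanins tested, 8 were higher and 9 lower, with a median log2 fold change of -0.05. CD82 (log2 fold change 0.69, adjusted p = 7.87e-13) and CD63 (log2 fold change 0.32, adjusted p = 1.84e-10) rose and TSPAN2 (log2 fold change -0.999, adjusted p = 5.46e-14) and TSPAN6 (log2 fold change -0.28, adjusted p = 1.84e-07) fell in edgeR's test, while CD151 overlapped between the groups. Of 15 proteases that process laminin-332 or collagen XVII or act nearby, 6 were higher and 5 lower, with a median of 0.09. PLAU (log2 fold change 0.80, adjusted p = 2.09e-21), MMP14 (log2 fold change 0.63, adjusted p = 3.15e-19) and PLAT (log2 fold change 0.31, adjusted p = 2.40e-10) rose, and MMP2 fell (log2 fold change -0.71, adjusted p = 6.16e-19) in edgeR's test.

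Of 22 signalling partners of the ITGA6 and ITGB4 integrin, 8 were higher and 7 lower, with a median log2 fold change of 0.06. The receptor genes EGFR (log2 fold change 0.25, adjusted p = 5.24e-09) and MET (log2 fold change 0.27, adjusted p = 4.12e-09) and the phosphatase gene PTPN11 (log2 fold change 0.40, adjusted p = 5.90e-13) rose, and PLCG1 fell (log2 fold change -0.46, adjusted p = 4.14e-14) in edgeR's test. Of 19 transcription factors listed for the epithelial programme, 5 were higher, 2 lower and 12 not called, with a median of 0.0049. This list also holds SNAI and ZEB factors and TWIST1, and TWIST1 is counted again among the mesenchymal markers below. TP63, the basal epithelial factor, rose (log2 fold change 0.18, adjusted p = 1.98e-05, edgeR), as did EHF (log2 fold change 0.14, adjusted p = 8.55e-05, edgeR), the most abundant. In edgeR's test the mesenchymal marker TWIST1 rose too (log2 fold change 0.49, adjusted p = 7.12e-06), and OVOL2 fell (log2 fold change -0.23, adjusted p = 2.10e-04).

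Of 12 urothelial and epithelial markers tested, 1 was higher (CDH1, log2 fold change 0.16, adjusted p = 5.99e-05, edgeR) and 7 were lower, among them GATA3 (log2 fold change -0.53, adjusted p = 7.57e-08), KRT19 (log2 fold change -0.15, adjusted p = 3.41e-05) and KRT7 (log2 fold change -0.08, adjusted p = 0.0187), with a median of -0.15. The call of KRT7 was lost without siFBXL6 replicate 1 or 3. Of 7 mesenchymal markers, 2 were higher and 3 lower, with a median of -0.02. VIM rose (log2 fold change 0.70, adjusted p = 2.57e-13), while CDH2 (log2 fold change -0.59, adjusted p = 3.80e-17), SPARC (log2 fold change -0.79, adjusted p = 8.68e-06) and FN1 (log2 fold change -0.16, adjusted p = 1.16e-05) fell in edgeR's test. Of 14 markers of fibroblasts, endothelium and leukocytes tested, 2 were higher, 1 lower and 11 not called, with a median of 0.02, and CD3E and MS4A1 did not pass the filter. They summed to 51.5, 53.5 and 51.4 CPM in the siNC libraries and 62.5, 59.7 and 60.4 CPM in those labelled siFBXL6, and COL1A1, the most abundant, fell (log2 fold change -0.15, adjusted p = 0.00427). CD68, a lysosomal protein gene that macrophages express highly, rose from 6.70 ± 0.139 to 18.8 ± 0.942 CPM (log2 fold change 1.49, adjusted p = 4.65e-19). Without CD68, a sum chosen after the data were seen, the list came to 44.7, 47.0 and 44.6 CPM in siNC and to less, 43.0, 42.0 and 41.4 CPM, in siFBXL6. The endothelial marker PECAM1 rose (log2 fold change 1.28, adjusted p = 4.40e-05) from 0.573 ± 0.126 CPM, whereas the endothelial markers VWF, CDH5 and KDR and the leukocyte markers PTPRC and CD14 overlapped between the groups, and PTPRC was under 1 CPM on average in both. Their part in the difference of the members was not tested.

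**Figure D5:**
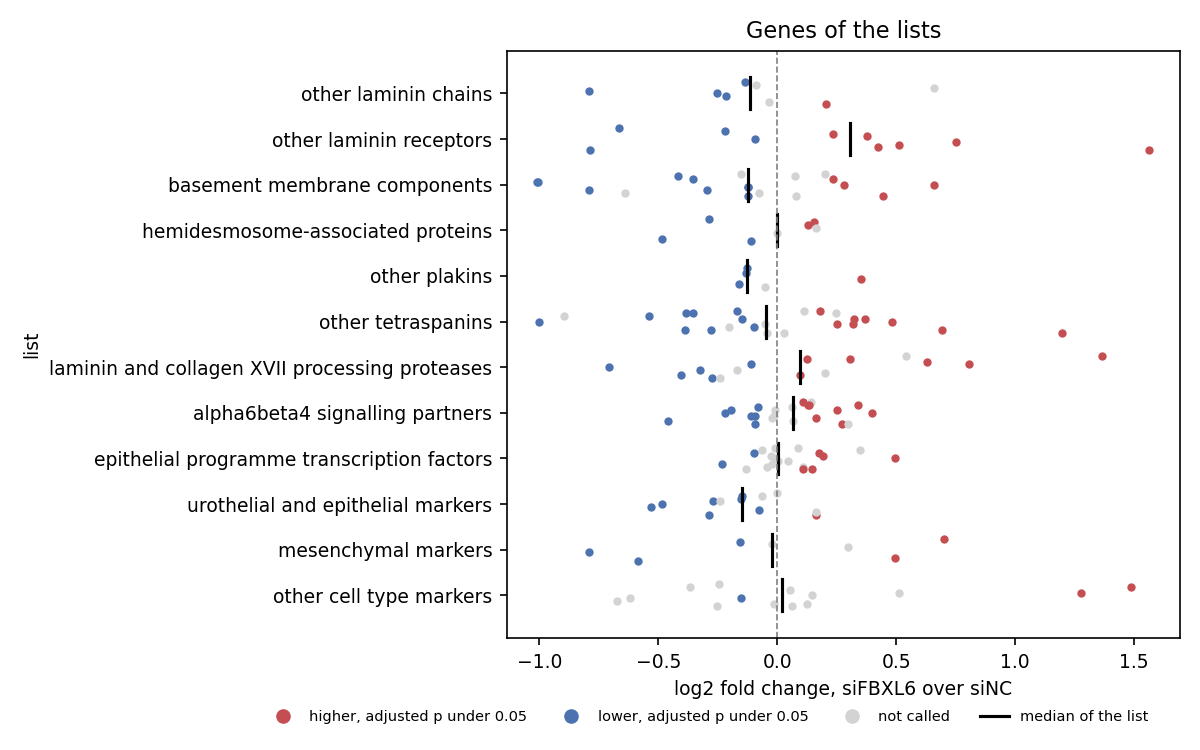
Log2 fold change of each tested gene, libraries labelled siFBXL6 over siNC, in the 12 lists, red where called higher, blue where called lower and grey where not called, with a black line at each list's median. The list medians lie between -0.15 and 0.31.

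Exons were also compared between genes. No exon base of LAMA3, LAMB3, ITGB4, COL17A1, DST or PLEC is shared with another gene of the table. ITGA6 shares 5.37% of its exon bases and CD151 7.57%, in both cases with genes on the opposite strand. Whether the counting used the strand is not given in the sources used here.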

How the data were processed

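Per the labels, RNA from 6 T24 samples (3 siNC, 3 siFBXL6) was made into libraries with a stranded mRNA kit. The authors deposited raw counts per gene, made with featureCounts (Subread 1.5.1) on GRCh38. For trimming and alignment, the submitters' processing notes name fastp 0.23.0 and STAR, and the study's methods name Trimmomatic and HISAT2. The annotation release and the settings for strand and multiple mapping are not given in the sources used here. The numbers in the sample labels were taken as replicate numbers, although the study also uses siFBXL6-1 and siFBXL6-2 as names of a pair of siRNAs, so the siFBXL6 libraries may not share 1 siRNA. The study's statement on statistics speaks of independent replicates in general, and neither it nor the labels say whether these samples were separate cultures, so p-values measure only the spread between these samples, which may be technical. Within a group, library pairs differed by a chi-square per degree of freedom of 2.76 to 5.80, more than sampling noise.

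Counts were filtered with filterByExpr, scaled with TMM and tested with edgeR 4.0.16 (limma 3.58.1, R 4.3.3) by the quasi-likelihood F-test with condition as the only term and Benjamini-Hochberg adjustment over 21298 genes, called at an adjusted p under 0.05. Members and lists were chosen with earlier results of these data known. Named genes were the members, FBXL6, ACTB, up to 4 called genes per list with the smallest adjusted p, the most abundant gene of each list, and 2 nearest profiles per member (log2 CPM with a prior count of 2). EPCAM, KRT7, VIM and PTPRC come from the label check. LAMB1, CDH1, KRT14, KRT18, UPK2, VWF, CDH5, KDR and CD14 were named after their values were seen. A listed gene that is not reported here does not count in its list. Isoform lengths are from GENCODE release 44. Alternatives were DESeq2 1.42.0, other scalings and filters, a replicate block, each library left out and a 2-fold limit. The steps were tested on simulated data.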

Additional observations from a re-analysis of the deposited data

How the results depend on the processing

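The log2 fold changes of LAMA3 (1.58 to 1.62), LAMB3 (0.68 to 0.71), ITGA6 (0.49 to 0.53), COL17A1 (0.34 to 0.39) and DST (0.44 to 0.54) kept their direction over 13 alternatives. The log2 fold change of ITGB4 was 0.0619 with upper-quartile scaling and 0.0593 with library size alone, within its 95% interval, and its call was lost under both and without siNC replicate 3, siFBXL6 replicate 1 or siFBXL6 replicate 3, while PLEC gained one without siNC replicate 1. CD151 (-0.04 to 0.05) and PLEC (-0.0025 to 0.06) took either sign. FBXL6 had an adjusted p between 0.112 and 0.521. Alternatives were run for FBXL6, ACTB and the genes named by rule from the lists, and not for the other nearest profiles or for genes named only in the label check or after their values were seen. Of these 663 values of 51 genes, 656 kept their call or lack of one, 5 lost the call and 2 gained it, and 0 changed sign in a called gene. ACTB, not called, took either sign (-0.022 to 0.018). EPPK1 lost its call without siNC replicate 2, siFBXL6 replicate 2 or siFBXL6 replicate 3 (adjusted p 0.00450 to 0.119 over the alternatives) and KRT7 without siFBXL6 replicate 1 or 3 (9.87e-04 to 0.107), and DSP gained it with library size alone or without siNC replicate 3 (0.0287 to 0.793), in edgeR or DESeq2. The cause was not tested.

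A 2-fold limit, by its construction, lowered the count of called genes from 8569 to 622, and in the lists to 1 for receptors, 2 for basement membrane, 1 for tetraspanins, 1 for proteases, and 0 for laminin chains, hemidesmosome-associated genes, plakins, signalling partners, transcription factors, epithelial and mesenchymal markers, and left 2 of 3 for other cell types. Without this limit the alternatives called 5 to 6 for laminin chains, 8 to 10 for receptors, 11 to 14 for basement membrane, 4 to 5 for hemidesmosome-associated genes, 3 to 5 for plakins, 12 to 17 for tetraspanins, 9 to 12 for proteases, 11 to 16 for signalling partners, 6 to 7 for transcription factors, 7 to 9 for epithelial markers, and always the same number for mesenchymal and other cell type markers. Upper-quartile scaling called 3972 genes higher and 4718 lower (median -0.0264) and library size alone 3930 and 4777 (median -0.0288). Without 1 library the count was 7451 to 8298. The replicate numbers did not pair the samples (correlations of deviations -0.0108, 7.99e-05 and 0.0133), and with the replicate block 8408 genes were called. With isoform length, chosen after seeing the data, levels per kb were 53.1 and 161 for LAMA3 and 25.7 and 36.1 for DST (DST-205, or 13.8 and 19.4 with DST-201) in siNC and siFBXL6. The ratio of LAMA3 to LAMB3 was then 0.345 and 0.645, and the share of LAMA3, with the other alpha chains at summed exons, was 69.0% and 88.9%. With library size alone LAMB3 was at 249 CPM per kb in siFBXL6. Not divided by length, the ratio of LAMA3 to LAMB3 was 0.408 in siNC and 0.763 in siFBXL6, and that of ITGA6 to ITGB4 1.78 and 2.41. By counts, also chosen after seeing the data, the share of LAMA3 was 47.4% and 75.9% and that of LAMB3 44.3% and 57.1%.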
